A study of Drosophila melanogaster with 3 samples.

Results

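The 10 wing disc selector and patterning genes vg, sd, ap, nub, rn, salm, salr, bi, kn and mirr were followed through the Sp1-GFP ChIP-seq peak lists of whole Drosophila melanogaster larvae. They were taken by name from 13945 protein-coding genes, and each was described by the peak summits inside its gene body or within 20 kb of either end. The optimal set holds the 8001 peaks of the pooled replicates that the study kept by the irreproducible discovery rate. Not all of them were found in every replicate. Of its summits, 44 lay in the 10 windows, and each of the 10 genes had at least 1. Across all protein-coding genes, 81.8% had an optimal summit in a window drawn the same way. Among the 1593 genes with windows in the same range of length the share was 85.8%. The count for the wing genes reads against these shares. The larvae were wandering larvae of the third instar, males and females together, of 1 transgenic line that carries Sp1 fused to GFP at its C-terminus. Chromatin was fragmented by sonication and precipitated with an antibody to GFP, in 3 biological replicates from separate biosamples, each set against 1 control alignment. There was 1 group of samples and no second condition. The peak lists hold no expression and come from whole animals, so wing disc identity could not be checked in them, and a strong peak in few cells cannot be told apart from a weak peak in many.

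Sp1 is a zinc finger protein of the Sp/KLF family, whose members are known to bind GC boxes and CACCC boxes. In flies it is best known, with its relative buttonhead, for specifying the ventral appendages such as the legs, whereas the wing is a dorsal appendage. The wing grows from the wing imaginal disc, a sheet of larval cells that is divided into territories by selector genes and then patterned by Hedgehog, Decapentaplegic and Wingless signals. Vestigial and Scalloped act as a complex that gives cells wing identity, Apterous defines the dorsal compartment, and the other genes described here are read out in parts of the disc to shape the pouch, the hinge and the veins.

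The strongest intronic summits were those of bi, which encodes the T-box factor also called Optomotor-blind, and of nub, which encodes a POU-domain factor of the wing pouch and hinge. They are shown because they are the strongest optimal summits inside the body of any of the genes. Each sequence is 201 bases of the plus strand of the Release 6 genome (dm6 coordinates), centred on the summit, whose base is the only capital. The first lies at chrX:4435043-4435243, the second at chrX:4449603-4449803 and the last at chr2L:12602271-12602471. G+C content was 36.8%, 36.8% and 19.4% in that order, against a median of 35.8% over all optimal summits and 42.3% over weaker pooled summits away from them.
bi, strongest: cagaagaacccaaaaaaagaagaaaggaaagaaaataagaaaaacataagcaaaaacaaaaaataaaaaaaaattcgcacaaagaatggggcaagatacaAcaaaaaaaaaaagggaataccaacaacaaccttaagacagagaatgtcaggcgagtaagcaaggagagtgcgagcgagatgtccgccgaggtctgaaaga
bi, second strongest: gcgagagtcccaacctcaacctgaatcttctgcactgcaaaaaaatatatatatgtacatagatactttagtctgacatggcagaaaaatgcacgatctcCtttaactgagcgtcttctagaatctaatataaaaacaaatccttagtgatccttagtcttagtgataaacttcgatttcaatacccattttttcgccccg
nub, strongest: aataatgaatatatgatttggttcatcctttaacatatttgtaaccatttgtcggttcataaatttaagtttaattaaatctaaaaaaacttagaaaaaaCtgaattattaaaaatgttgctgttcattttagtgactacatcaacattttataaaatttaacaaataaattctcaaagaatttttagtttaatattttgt

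None of these 3 windows held any of the 5 words of 6 letters that were searched on both strands, which were the GC box GGGCGG, the CACCC box GGGTGG, the GAGA repeat GAGAGA, the Scalloped-type TEAD word CATTCC and the core TATCGA of the DNA replication-related element (DRE). The optimal summits nearest to the genes' own transcription start sites (TSSs) looked different. Within 1000 bp of an own TSS lay 1 summit each of sd, nub, rn, bi and mirr, and their G+C content ran from 46.8% to 61.2% with a median of 57.2%. The other 39 summits had a median of 36.3%, and all 4206 optimal summits within 1000 bp of any TSS had a median of 37.8%. The GAGA repeat was present at 4 of these 5 summits and at 4 of the other 39, against 11.9% of all optimal summits that near to a TSS. This grouping was chosen after its values were seen and was not tested. Of these windows, 4 are shown, with every searched word on either strand in capitals. They lie at chr2L:12586909-12587109 for nub, chr3R:7309704-7309904 for rn, chrX:4426885-4427085 for bi and chr3L:12693015-12693215 for mirr.
nub, near its TSS: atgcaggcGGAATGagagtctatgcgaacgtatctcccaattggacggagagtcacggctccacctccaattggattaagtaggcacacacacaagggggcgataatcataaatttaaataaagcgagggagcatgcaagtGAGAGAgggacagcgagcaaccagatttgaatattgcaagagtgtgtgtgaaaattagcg
rn, near its TSS: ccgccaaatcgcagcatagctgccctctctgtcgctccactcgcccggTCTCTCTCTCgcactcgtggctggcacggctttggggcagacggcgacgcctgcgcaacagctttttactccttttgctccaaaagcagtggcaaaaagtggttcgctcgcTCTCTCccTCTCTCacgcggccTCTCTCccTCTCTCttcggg
bi, near its TSS: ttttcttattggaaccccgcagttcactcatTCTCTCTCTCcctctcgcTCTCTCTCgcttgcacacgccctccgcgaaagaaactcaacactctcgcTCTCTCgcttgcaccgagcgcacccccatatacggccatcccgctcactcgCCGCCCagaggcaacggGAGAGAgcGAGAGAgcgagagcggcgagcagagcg
mirr, near its TSS: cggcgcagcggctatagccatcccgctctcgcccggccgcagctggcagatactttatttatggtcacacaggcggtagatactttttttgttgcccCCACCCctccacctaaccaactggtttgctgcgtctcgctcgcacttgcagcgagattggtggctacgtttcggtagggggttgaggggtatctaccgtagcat

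The rn window held 7 overlapping or separate matches to the GAGA repeat and the bi window 8, with a GC box 49 bp from the bi summit. In the mirr window the only match was a CACCC box that began at -3 bp from the summit. A match is a description of the letters and not a bound site.

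Counts of summits differed widely among the genes. The optimal set placed 10 summits in the window of vg, 9 in that of bi, 6 each in those of nub and rn, 5 in that of kn, 3 in that of sd, 2 in that of mirr and 1 each in those of ap, salm and salr. The median was 4 summits, against 3 over all protein-coding genes and 4 over the 1593 genes whose windows fell in the same range of length. Having 5 or more summits was the case for 5 of the 10, against 35.8% of all genes. The windows of these genes were long, with a median of 62.3 kb against 42.2 kb. Per 100 kb of window the median was 5.73 optimal summits over the 10 genes, 7.15 over all genes and 6.65 over the genes of like window length. Summed over the windows there were 6.40 optimal summits per 100 kb, against 5.98 over the full length of the chromosome arms. That baseline is not made of gene windows and is itself below both medians of other genes. The summed value was not set against summed windows of other genes. The pooled list of 30000 peaks, which the optimal set is the strongest section of, gave a median of 31.4 summits per 100 kb against 22.4 over all genes. Accordingly 21.7% of the 203 pooled summits in the windows were optimal, against 26.7% of all pooled summits.

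**Figure D1:**
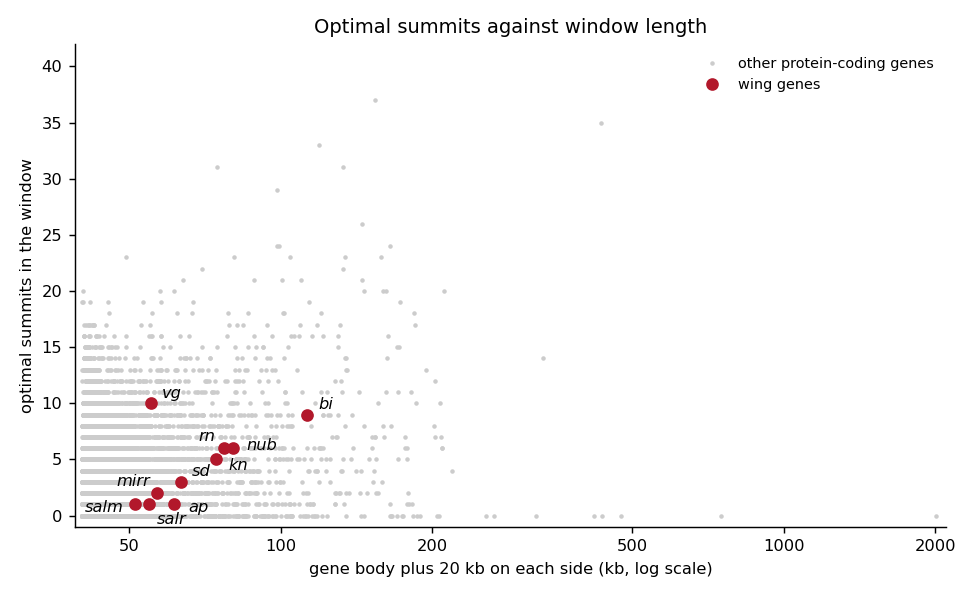
Optimal summits in the window of each protein-coding gene (vertical axis) against window length in kb (horizontal axis, log scale), with the 10 wing genes in red and all others in grey. The wing genes run from 1 to 10 summits and lie inside the cloud of other genes, with vg and bi the highest of them.

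Summits were also sorted by what lay under them. Of the 44, 3 lay at an own promoter, within 500 bp of a TSS of the gene, 13 in the own gene body, 13 between genes, 13 at the promoter of another gene and 2 in the body of another gene. An own promoter summit was present in 3 of the 10 genes, sd, rn and bi, against 27.8% of all genes, and 5 of the 10 had a summit within 1000 bp of a TSS, against 31.2%. A summit in the gene body was present in 6 of the 10 genes, against 17.1% of all genes and 53.8% of the 1593 genes of like window length. For 23 of the 44 summits the nearest gene body was that of the wing gene.

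**Figure D2:**
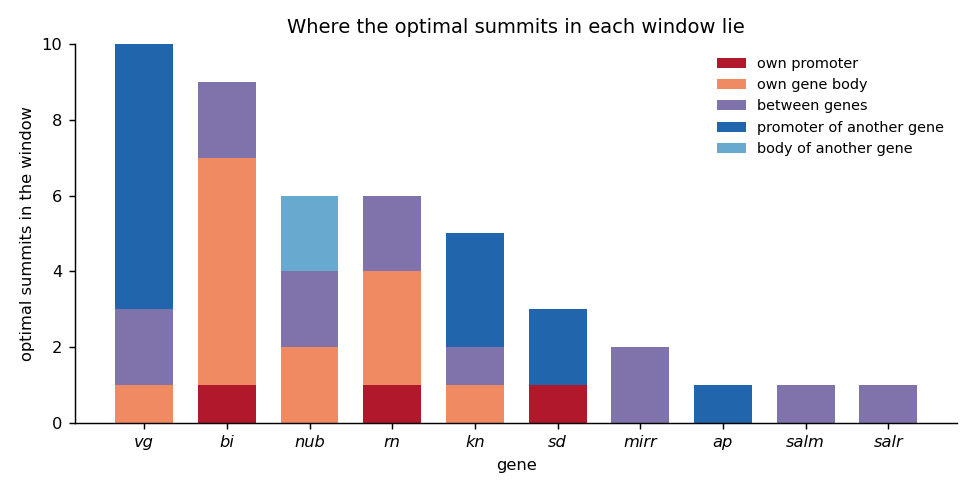
Number of optimal summits in each gene's window (vertical axis), split by where the summit lies. In vg 7 of 10 summits lie at promoters of other genes, while in bi 6 of 9 lie in the gene body away from the promoter.

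**Figure D3:**
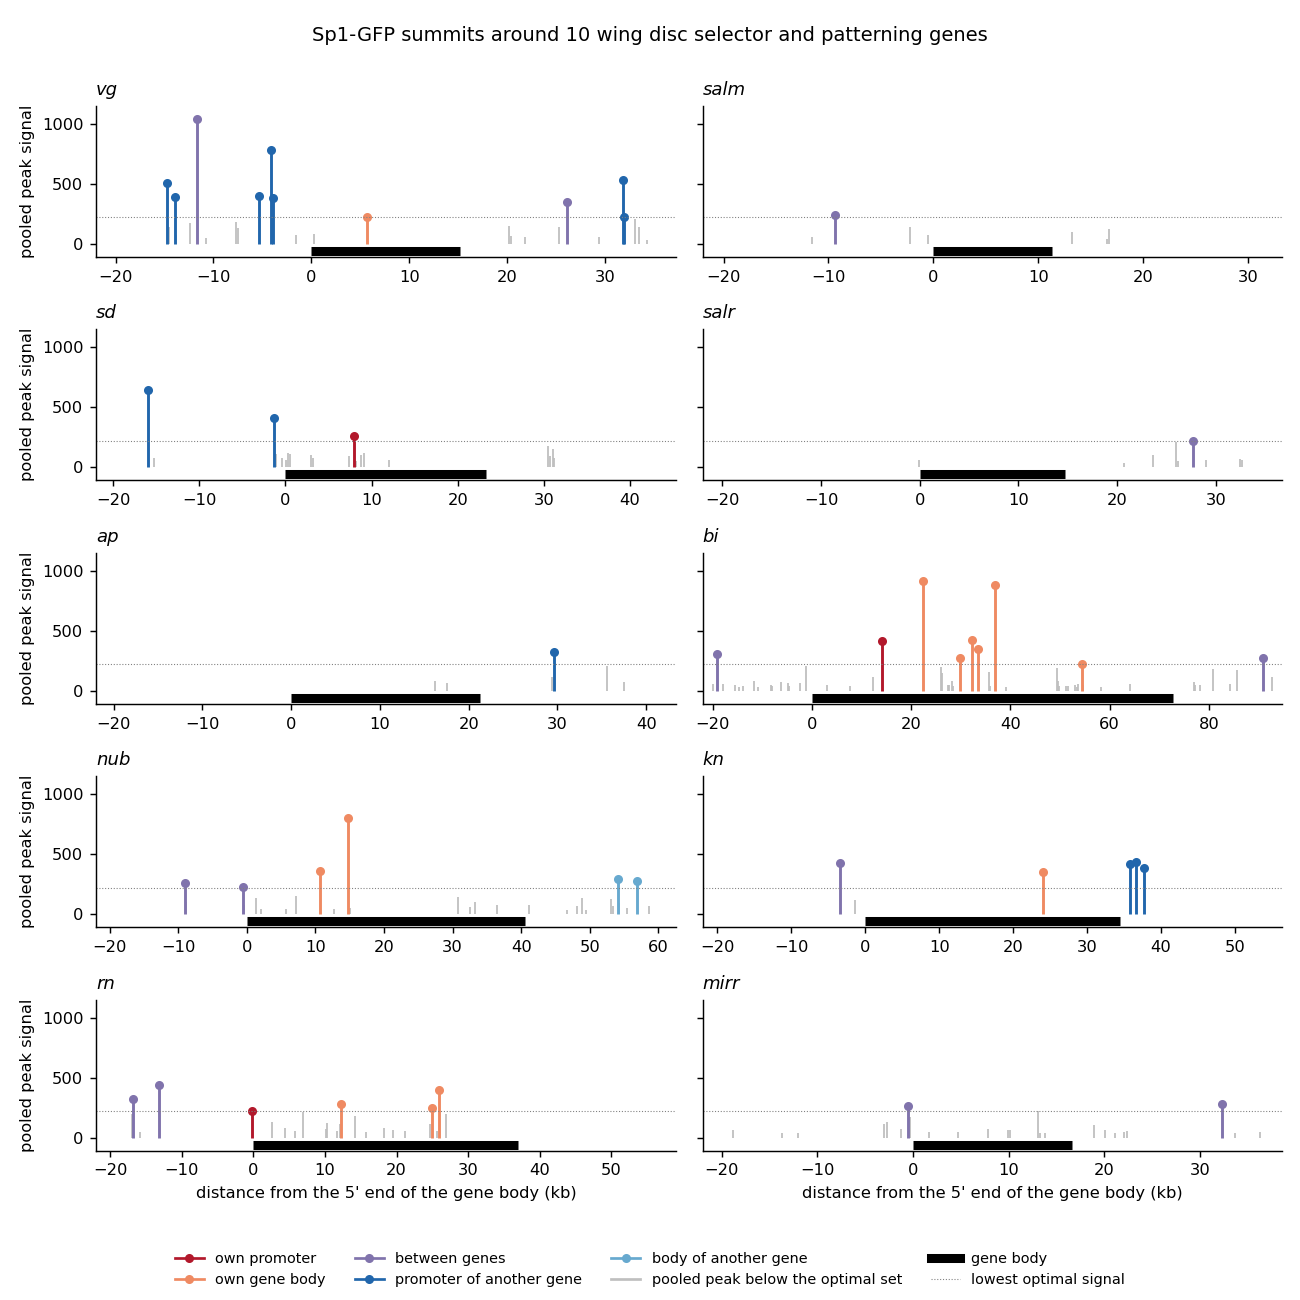
Pooled peak signal of each summit (vertical axis, no unit) against distance in kb from the 5' end of the gene body (horizontal axis) for the 10 genes, with optimal summits coloured by where they lie, weaker pooled summits in grey and the gene body as a black bar. Optimal summits lie along the body of bi and rn, on both sides of vg, and outside the bodies of salm, salr, ap and mirr.

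Vestigial, the transcription cofactor that is the wing selector, is encoded on 2R from 12884201 to 12899385 on the plus strand (FBgn0003975), among 7 other protein-coding genes in its window. Its 10 optimal summits were reached or exceeded by 5.89% of all genes, and its 18.1 per 100 kb by 9.98%. The strongest, at 12872560, had a pooled signal of 1039 and rank 1259 of 8001, the highest rank of any summit of the 10 genes. Its signals were 316, 333 and 391 in replicates 1, 2 and 3, or 347 ± 39.2 (SD, n = 3). The signal is the value that the authors' peak caller gave relative to the control, without a stated scale between lists, and all 3 replicates placed the summit among their 8001 strongest peaks. It lay between genes, at -11641 bp from the start of vg, but the nearest gene body was that of Balat and the nearest TSS, 2311 bp away, that of bic.

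The second vg summit, at 12880065, had a pooled signal of 783 and reached 174, 287 and 325 in the replicates. It lay 165 bp from a TSS of Nmda1 and inside AspRS, the aspartyl-tRNA synthetase gene. The next, at 12915955 by the NAT1 promoter, gave 201, 270 and 60.9, with replicate 3 far below the others. At 12869471, by the CG17574 promoter, the signals were 155, 127 and 242. Only 1 of the 10 summits lay inside vg, in an intron at 12889853, with a pooled signal of 222 near the lowest of the optimal set, 220.4. That summit was found in replicate 3 only, at 108. The vg promoter itself carried a pooled peak of 79.3 below the optimal set, of which replicates 1 and 2 gave 42.3 and 27.1 and replicate 3 no peak. When each summit counted only for its nearest gene body, vg kept 1 summit.

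Scalloped, the TEAD-family DNA-binding partner of Vestigial, is encoded on X from 15804370 to 15827682 on the plus strand (FBgn0003345), with 12 other genes in the window. Of its 3 optimal summits 2 lay at promoters of neighbours. The strongest, at 15788447 near the Rhp promoter, had signals of 233, 239 and 172, or 214 ± 37.0 (SD, n = 3), and a pooled signal of 643. At the promoter of PGRP-LE, a peptidoglycan recognition gene, signals were 117 and 157 in replicates 1 and 2 and replicate 3 had no peak. The own promoter summit, at 15812356, lay 29 bp from an internal TSS of sd with a pooled signal of 261, and gave 157 and 103 in replicates 1 and 2 and no peak in replicate 3. The full lists of 30000 peaks held 25, 21 and 11 summits in the sd window, so replicate 3 was the lowest here too.

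Apterous, the LIM-homeodomain selector of the dorsal compartment, is encoded on 2R from 5706202 to 5727525 on the minus strand (FBgn0267978), and Mirror, an Iroquois-family homeodomain factor, on 3L from 12693639 to 12710249 on the plus strand (FBgn0014343). The single optimal summit of ap, at 5697929, lay 57 bp from the TSS of Cndp2, giving 118 and 111 in replicates 1 and 2 and no peak in replicate 3. No pooled peak lay within 500 bp of any of the 3 annotated TSSs of ap, and its window held only 6 pooled summits. The mirr window held 24 pooled summits, of which 8.33% were optimal. Its strongest, at 12725973 between genes, had signals of 60.7, 42.5 and 127, so replicate 3 was the highest. The other, at 12693115 and -524 bp from the TSS, gave 102, 120 and 72.6, with replicate 3 the lowest. No other protein-coding gene lay in the mirr window, and no optimal summit lay in the body of either gene.

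Nubbin is encoded on 2L from 12587625 to 12628135 on the plus strand (FBgn0085424), and Rotund, a zinc finger factor of the distal parts of appendages, on 3R from 7272617 to 7309629 on the minus strand (FBgn0267337). The strongest nub summit, whose sequence is the most A+T-rich of those above, lay in an intron at 12602371, 14746 bp from the start of the gene. Its signals were 253, 259 and 295, or 269 ± 22.7 (SD, n = 3), and its pooled signal of 797 gave rank 1812. Another intronic summit, at 12598285, gave 108, 158 and 108. The remaining 4 lay upstream or in the neighbour Ref2, and the summit at 12587009, -616 bp from the start, gave 80.5 and 93.5 in replicates 1 and 3 and had no peak in replicate 2.

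The 6 summits of rn spread over 42.7 kb, with a median rank of 5845 against 6202 for nub. The strongest, at 7322765, lay between genes at -13136 bp with signals of 182, 126 and 123, or 143 ± 33.5 (SD, n = 3). In the body, the summit at 7283723 gave 145, 161 and 90.8. The own promoter summit, at 7309804 and -175 bp, had a pooled signal of 224 at rank 7896, near the end of the optimal set. Its signals of 67.4, 84.9 and 74.0 were close together, but no replicate placed it among its 8001 strongest peaks. Having 3 or more optimal summits in the body, as rn did, was the case for 4.09% of all genes, but per 100 kb of body its 8.11 summits were reached by 14.0%.

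Bi, salm and salr are known as targets of Decapentaplegic signalling in the centre of the wing. Bi lies on X from 4412856 to 4485647 on the plus strand (FBgn0000179), the longest body of the 10 at 72.8 kb, with no other protein-coding gene in its window. All 9 of its optimal summits had bi as the nearest gene body, and 7 lay in the body, a number that 0.94% of all genes reached. Its 53 pooled summits were reached by 0.52% of genes, but it is long. Per 100 kb, its body summits were reached by 13.3% of genes, its pooled summits by 13.7% and its 7.98 optimal summits in the window by 44.0%. The summit at 4435143, 8008 bp from an own TSS, reached 460, 161 and 280, or 300 ± 151 (SD, n = 3), with replicate 1 far above replicate 2. The summit at 4449703 gave 290, 298 and 295, or 294 ± 3.88 (SD, n = 3), nearly the same value in every replicate. At the own promoter, 4426985, the signals were 179, 75.5 and 164, with replicate 2 the lowest.

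The spalt genes encode related zinc finger factors and lie side by side on 2L, salr from 11358873 to 11373636 on the plus strand (FBgn0000287) and salm from 11434311 to 11445614 on the minus strand (FBgn0261648). Each had 1 optimal summit in its window, and neither had any in its body. The salm summit, at 11454981 and -9367 bp from its TSS, gave 66.6 and 93.3 in replicates 1 and 3 and no peak in replicate 2. The salr summit, at 11386568 downstream of the gene, gave 65.5, 23.2 and 139, with replicate 3 far above replicate 2. Both had pooled signals close to the lowest of the optimal set, at 243 and 221. In the full lists, the salm window held 2, 1 and 13 peaks and the salr window 4, 4 and 14, so replicate 3 held most of them.

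The interval of 60.7 kb between the ends of salr and salm was richer than either window. It held 7 optimal summits, or 11.5 per 100 kb, and 19 pooled ones, and only the salr summit above fell within 20 kb of either gene. The strongest, at 11399684, gave 208, 214 and 241, and lay 26.0 kb from salr. The summit at 11395859, 22.2 kb from salr, gave 200, 105 and 264. In this interval the full lists of replicates 1, 2 and 3 held 12, 10 and 25 peaks. Just outside other windows lay a summit of 813 at 21.3 kb from bi, where the replicates gave 313, 220 and 286, and a summit of 3034 at 23.0 kb from rn, at the CG1227 promoter. Just inside, at 19.2 kb and 18.1 kb from bi, lay summits of 304 and 273.

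Knot, also called Collier, an EBF-family factor that Hedgehog signalling turns on in the central wing, is encoded on 2R from 14772650 to 14807061 on the minus strand (FBgn0001319), among 10 other genes. Of 6 pooled summits in its window 5 were optimal, or 83.3%, the highest share of the 10 genes. The strongest, at 14770418, lay -51 bp from the TSS of BEAF-32, which encodes an insulator-binding protein, and gave 150, 91.6 and 207. The summit at 14810434, -3373 bp from the start of kn, gave 141, 133 and 149, values close together across the replicates. The intronic summit at 14783068 gave 97.2 and 146 in replicates 1 and 3 and had no peak in replicate 2. No pooled peak lay within 500 bp of any of the 3 TSSs of kn. Each replicate held 5 of its 8001 strongest peaks in the kn window.

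Ordered by the pooled signal of the strongest optimal summit in the window, the genes ran vg, bi, nub, sd, kn, rn, ap, mirr, salm and salr. For vg, sd, kn, rn, ap and mirr that summit lay nearest to the body of another gene. Counting only summits nearest to the gene's own body, the order was bi, nub, rn, kn, mirr, sd, salm, vg and salr. There vg fell to a pooled signal of 222, and ap had no summit. None of the 9 neighbouring pairs in the first order passed a test, which 3 replicates could not have allowed. The log2 ratio of replicate signals was 0.33 ± 0.81 (SD, n = 3) for vg over bi, with an exact two-sided sign-flip permutation p of 0.75. For bi over nub the log2 ratio was 0.03 ± 0.78, and for kn over rn it was 0.01 ± 0.66. Only nub over sd pointed the same way in 3 of 3 replicates, at 0.34 ± 0.38 with an exact permutation p of 0.25, the smallest that 3 replicates allow. The summits and their order were chosen by the pooled signal, which comes from these same 3 replicates. Agreement of the replicates with the order is therefore not independent of that choice. Ap over mirr had the largest log2 ratio, 1.18 ± 0.30 over the 2 replicates with a peak at both, with an exact permutation p of 0.5, the smallest possible there. That ratio rests on the mirr summit with the highest pooled signal: the other mirr summit gave 102 and 120 in those replicates, against 118 and 111 for ap, and in replicate 3 mirr reached 127 where ap had no peak. After Benjamini-Hochberg adjustment over the 9 pairs every p was 1.

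**Figure D4:**
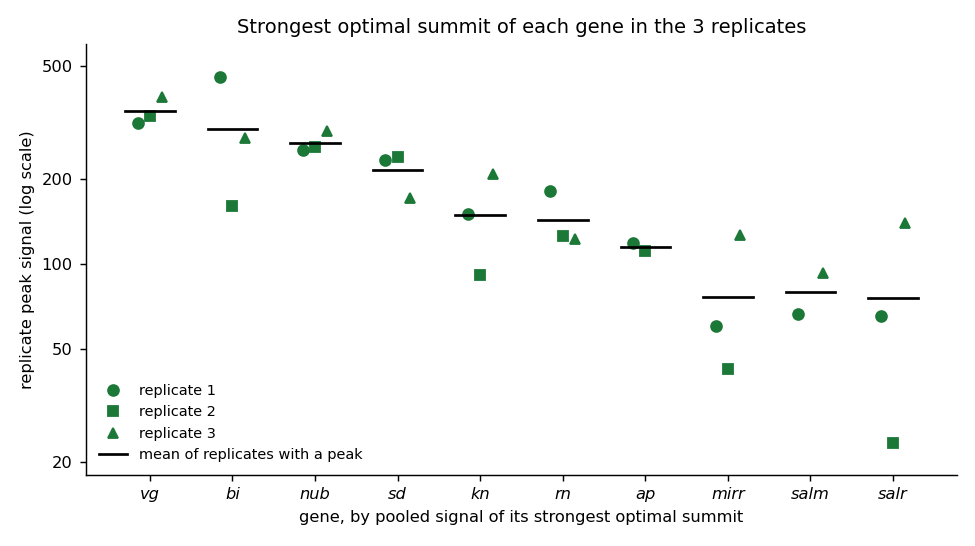
Replicate peak signal (vertical axis, log scale, no unit) at the strongest optimal summit in each gene's window, whichever gene lies nearest. Circles, squares and triangles stand for replicates 1, 2 and 3, and a line for the mean of the replicates that have a peak. Signals fall from 316 to 391 in vg to between 23.2 and 139 in salr, and the ranges of neighbouring genes overlap except between nub and sd and between rn and ap.

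The summits of the wing genes ranked low in the optimal set. Their median rank was 4870 of 8001, none was among the 1000 strongest, and 13 of 44, or 29.5%, were among the upper 50% of the set. Their highest pooled signal was 1039, while the strongest optimal peak reached 11363. Median signals at the wing gene summits and at all other optimal summits were 126 and 148 in replicate 1, 120 and 153 in replicate 2, and 122 and 164 in replicate 3. The wing gene summits were thus the lower in every replicate, by a log2 ratio of -0.24, -0.34 and -0.43, or -0.34 ± 0.093 (SD, n = 3), a ratio of 0.792. The exact permutation test over replicates, two-sided by sign flips, gave p = 0.25, the smallest that 3 replicates allow, so this design cannot pass 0.05. Peaks were also narrower, with a median width of 323 bp against 390 bp, and the width was not tested.

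Recovery among the strongest peaks of single replicates was lower, while recovery in the full lists was alike. A place among the strongest peaks depends on signal, so the first is not separate from the lower signals above. Neither was tested. Among the 8001 strongest peaks of each replicate, 17 of the 44 summits (38.6%) were found in all 3, against 52.0% of all optimal summits, 16 (36.4%) in 2, 10 (22.7%) in 1 and 1 (2.27%) in none. Within the full lists 35 of 44 (79.5%) were found in all 3 replicates, against 79.3% of all optimal summits. At those 35 the median coefficient of variation of the 3 signals was 27.3%, against 25.1% over all. By its 8001 strongest peaks alone, replicate 1 placed a summit in the windows of 8 of the 10 genes, replicate 2 in 8 and replicate 3 in 9, against 83.2%, 80.8% and 83.7% of all genes. Their median densities were 6.46, 4.93 and 5.34 per 100 kb, against 7.29, 7.24 and 6.78.

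Replicate 3 stood apart from the other replicates. Only 36.5% of its 8001 strongest peaks lay at promoters, against 48.1% and 49.9% in replicates 1 and 2, and the same was seen at the wing genes, with 19.5% against 41.0% and 52.5%. In the windows of nub, salm, salr, bi and mirr, with at most 1 other gene, the full lists held 87, 69 and 130 peaks, so that replicate 3 was 1.67 times the mean of the others. In those of vg, sd, ap, rn and kn, with 3 or more other genes, they held 88, 98 and 68, a ratio of 0.731, although rn with 21, 22 and 27 peaks and kn with 8, 10 and 12 had the most in replicate 3. Over all genes the ratios were 1.41 for 464 windows with at most 1 other gene and 0.802 for 13011 with 3 or more. The wing gene summits missing from the strongest peaks of replicate 3 had a median G+C content of 40.0%, against 35.6% for those present, and over all optimal summits the values were 42.8% and 33.8%. The wing gene windows themselves had a median G+C content of 42.35% with at most 1 other gene and 42.37% with 3 or more. Over all genes these were 41.0% and 43.6%. The part of the replicate's base composition in these counts was not tested.

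**Figure D5:**
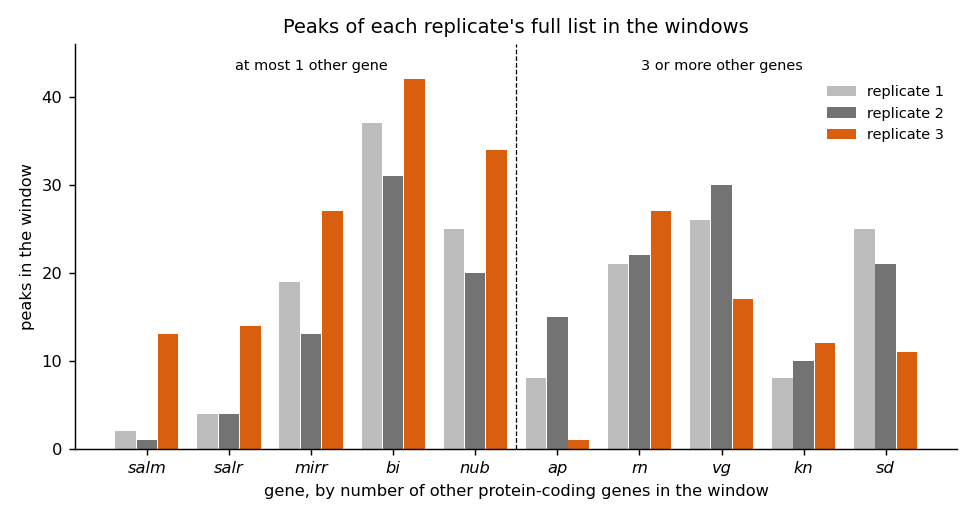
Peaks of the full list of each replicate (vertical axis) in the windows of the 10 genes, ordered by the number of other protein-coding genes in the window, with a dashed line between windows with at most 1 and those with 3 or more. Replicate 3, in orange, is the highest in all 5 windows on the left and on the right it is the lowest in ap, vg and sd and the highest in rn and kn.

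By location, 16 of the 44 summits (36.4%) lay at a promoter of some gene, against 44.5% of all optimal summits. Introns held 15 (34.1% against 36.0%), space between genes 9 (20.5% against 15.7%) and other transcribed sequence 4 (9.09% against 2.22%), with 2 of these 4 at bi, while exons and UTRs of protein-coding genes held 0 outside promoters. In the strongest peaks of the 3 replicates the promoter share was 37.7% ± 16.7 and the intron share 34.1% ± 5.96 (SD, n = 3). The spread of the replicates is larger than the gap to all optimal summits in both. That spread takes no account of each replicate's own share over all its strongest peaks. For promoters these shares were 48.1%, 49.9% and 36.5%, against 41.0%, 52.5% and 19.5% at the wing genes. The wing genes were thus the lower in replicates 1 and 3 and the higher in replicate 2.

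At least 1 searched word lay at 18 of the 44 summits (40.9%), against 34.3% of all optimal summits. A GC box lay within 100 bp of 1 of 44 summits (2.27%, 95% Wilson interval 0.402 to 11.8), against 4.30% of all optimal and 7.65% of the weaker pooled summits. A CACCC box lay at 4 (9.09%, interval 3.59 to 21.2), against 5.87% and 9.61%. The TEAD word lay at 3 (6.82%, interval 2.35 to 18.2), against 6.31% and 9.71%, in nub, bi and kn and at none of the vg or sd summits. The GAGA repeat and the DRE core each lay at 8 (18.2%, interval 9.51 to 32.0), against 11.8% of all optimal summits for both. Of the 8 summits with a DRE core, 4 were in the vg window, all at promoters of other genes. Every interval here contains the share of all optimal summits and covers the counting of sites only. Of the 10 strongest summits, 2 held any word.

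A wider list of 50 other genes of wing patterning was read in the same way, and the window of 1 of them, pdm2, overlaps that of nub. The list also counts Sp1 itself and buttonhead (btd), named above for the ventral appendages. Their windows held 3 and 6 optimal summits, with a promoter summit at btd only. Of the 50 genes, 48 (96.0%) had an optimal summit in the window, against 81.8% of all genes. At the promoter 19 (38.0%) had one, against 27.8%. The median was 5 summits and 8.66 per 100 kb, against 3 and 7.15 over all genes. Windows of the list were long, with a median of 55.6 kb against 42.2 kb. Its shares were not set against genes of like window length, and the list was chosen with earlier results of these data known. The highest counts were those of sbb with 33, ush with 23, ptc, the Hedgehog receptor gene, with 18, brk, a repressor of Decapentaplegic targets, with 16, and hth with 15, a number that tkv also had. The strongest promoter summits had pooled signals of 3731 at sbb, 562 at ush, 477 at ft, 468 at noc and 461 at ct. All 5 exceeded the 414 at the bi promoter, the strongest own promoter summit of the 10 genes.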

How the data were processed

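Peak lists in narrowPeak format were used from 3 biological replicates, the pooled replicates and the optimal set made from them by the irreproducible discovery rate, all on dm6 per the labels. Aligner, caller and versions were not given in the sources used here. Each deposited signal comes from the authors' caller relative to 1 control alignment, and was used within a list only. The deposited −log10 q-value was not used for ranking, and the deposited summit offset gave the position. No list holds read counts, so depth is unknown. Replicate and pooled lists end at 30000 lines, and each replicate was represented by its 8001 strongest peaks where stated. A replicate's signal at a summit was that of its highest peak within 100 bp. Gene models were Ensembl release 115 (BDGP 6.54) and sequence was RefSeq Release 6, whose arm lengths contain every peak. Promoters reached 500 bp from protein-coding TSSs and took precedence over exons and UTRs, these over introns, and introns over other transcripts. Weaker pooled summits lay over 500 bp from every optimal one for words and G+C content.

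The members and lists were chosen with earlier results of these data known, so counts stand beside those over all genes and only ratios within replicates were tested. Named summits are the strongest of each gene, up to 3 further ones and the strongest at its own promoter. Named genes of the wider list are the 5 with most summits and the 5 with the strongest promoter summit, with pdm2, tkv, Sp1 and btd named for the reasons given there. The list had 51 symbols, of which 1 was not matched. The counting was tested on simulated data. Each replicate is its own biosample of the 1 line, and p-values measure the spread between them. Computing used scipy 1.17.1, pandas 2.3.3 and numpy 2.4.6 under Python 3.11.15, with figures by matplotlib 3.10.9. Alternatives were other windows, promoter widths and match distances, fewer or more peaks, each replicate left out, and, chosen after seeing the data, missing signals taken as 0 and summits at other genes' promoters left out.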

Additional observations from a re-analysis of the deposited data

How the results depend on the processing

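Signals of the wing gene summits stayed below those of other optimal summits under every alternative in which they were compared. Other windows and other promoter widths were not among these. The 10 genes with an optimal summit became 6 with the gene body alone (0 kb, 17.1% of all genes), 6 with the strongest 50% of the optimal peaks (70.6%) and 6 to 8 when a replicate was left out, which keeps optimal summits in the strongest peaks of both others and leaves 56.8% to 66.7% of them. Without a replicate all genes gave 72.1% to 75.6%. The 44 summits became 15, 25, 29 and 78 with windows of 0, 5, 10 and 50 kb, 13 with the strongest 50% and 17 to 27 without a replicate. The 3 genes with an own promoter summit became 0 with the strongest 50%, 0 to 1 without a replicate and 5 within 1000 bp, while the 27.8% of all genes became 16.4%, 16.6% to 21.4% and 31.2%. Median density, 5.73 per 100 kb, became 3.60 at 0 kb, 1.27 with the strongest 50%, 2.03 to 3.70 without a replicate and 3.11 without summits at other genes' promoters. At 0 kb the median was 0 over all genes and 2.88 over the genes of like window length, so there the wing genes were the higher. Their median count was 1 with the strongest 50% and 1.5 to 3 without a replicate, against 1 and 2 over all genes. The share in all replicates, 38.6%, became 84.6% with the strongest 50% of the optimal peaks, 79.5% with all 30000 peaks of each replicate and 13.6% when that smaller number of peaks stood for each replicate. The intron share, 34.1%, was 25.9% to 43.5% without a replicate and 48.4% without other genes' promoters. Within 250 bp the GC box share was 13.6%, CACCC 18.2%, GAGA 29.5% and DRE 27.3%. Within 50 bp the TEAD word was at 2.27% and the DRE core at 11.4%, and without other genes' promoters both were at 9.68%. The intron and word shares at these alternative settings were not set against those of all optimal summits. Wider windows hold more bases, and for the other shifts the cause was not tested. No paired analysis was possible because there is 1 group. Depth is unknown, so its limits cannot be given.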

Other observations

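Of the 203 pooled summits in the windows of the wing genes, 159 lay below the optimal set. Introns held 70 of these (44.0%, against 48.5% of all 21999 such pooled summits), promoters 29 (18.2% against 20.1%), other transcribed sequence 28 (17.6% against 3.20%, with 21 of the 28 at bi and a share of 6.09% without bi) and space between genes 27 (17.0% against 23.0%). Coding exons held 2 and 5' UTRs 3.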
